A study of Gallus gallus with 6 samples.

Results

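The BMP, TGF-beta and SMAD genes are the ligands, receptors, binding proteins and intracellular effectors of the transforming growth factor beta superfamily. They were followed here in the liver of chickens that differ in their response to ALV-J, the J subgroup of avian leukosis virus, which is a retrovirus that causes tumours in poultry. Members were chosen by gene name alone. The names begin with BMP, SMAD, SMURF, ACVR, TGFBR, INHA, INHB, LTBP, GREM, BAMBI, CHRD or GDF, and TGFB1 to TGFB3, ID1 to ID4, NOG, FST, ENG, HFE2 and TMPRSS6 were looked for as well. This gave 54 rows with 53 symbols out of the 14481 genes of the table. The set was put together with earlier results of the same comparison known, so the group differences below are a description and give no independent evidence about the set. SMAD2, SMAD4, TGFB1, TGFBR1, ACVRL1, ID4 and HFE2 were not analysed here. The samples were liver RNA of 3 chickens labelled ALV-J-resistant and 3 labelled ALV-J-susceptible, each library a separate bird. Age, sex, breed and infection status of the birds were not given in the labels used here.

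In this family a dimeric ligand brings together type I and type II serine/threonine kinase receptors, which phosphorylate receptor SMADs that then act on transcription. BMP ligands signal mainly through SMAD1, SMAD5 and SMAD9 and raise ID genes, while activins and TGF-betas signal mainly through SMAD2 and SMAD3. In the mammalian liver BMP6, made by sinusoidal endothelial cells, drives the iron hormone hepcidin in hepatocytes, GDF2 (also called BMP9) and BMP10 circulate and act on endothelium, and TGF-beta drives scar formation by stellate cells. Most roles given below come from work in mammals.

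No member passed the test between the groups. With limma on log2(FPKM + 1), 0 of the 39 members tested had a Benjamini-Hochberg adjusted p under 0.05, against 0% of the 9626 genes tested. The lowest adjusted p of a member was 0.984. At an unadjusted p under 0.05, 3 members were counted, BMPER and ENG higher in resistant birds, as were 2.4% of all genes tested, and TGFB3 lower, as were 1.48%. No other tool was run. What the data hold is therefore mainly the level of each component in each bird: abundant ID3, TMPRSS6, BAMBI, INHBA and ID2, receptor and SMAD genes in the middle range, and many ligands and antagonists listed at 0 in some birds. The members whose resistant birds all lay on the same side of all susceptible birds were BMPER, BMPR1B and SMAD5 above, where 4.44% of all genes tested were, and TGFB3 and GDF2 below, where 3.98% were. The p-values measure the spread between these birds, and in whole liver fewer cells of a type and less RNA per cell cannot be told apart.

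Expression was measured as FPKM, fragments scaled to transcript length and sequencing depth, so levels can be set against each other between genes. In what follows, values are listed for birds 1, 2 and 3 of a group in that order. The scaled counts deposited beside the FPKM correspond to 6623026, 5809095 and 3831119 fragments among resistant birds, against 5539793, 4261599 and 4449316 among susceptible birds. Genes above 0 numbered 9424, 8977 and 7653 among resistant birds, against 7858, 6671 and 7611 among susceptible birds. A listed 0 can stand for a failed estimate: the albumin gene ALB was listed at 0 in resistant bird 2 and susceptible bird 3 and stood at 24858 or more in the other 4 birds. The 9 rows of chromosome W summed to an FPKM of 0 in resistant bird 3 and susceptible bird 3 and to between 5.08 and 20.7 in the other 4. The other hepatocyte markers were abundant in all 6 birds, with TTR and APOA1 among them. Of the 6 hepatocyte markers, 0 had a higher mean log2 level in resistant birds. Of all genes tested 52.8% had, and of those with a mean of at least 10 FPKM 46.1%. For ALB the difference in mean log2 level, resistant minus susceptible, was -0.12 (SE 4.49) and turned on its listed 0s.

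Of the 54 rows, 20 were above 0 in all 6 birds and 7 were listed at 0 in all of them. The 7 were the BMP antagonists NOG, GREM1 and CHRDL2 and the ligand genes INHA, INHBB, GDF5 and GDF8, the last better known as myostatin. A further 8 rows were above 0 in at least 1 bird but below the mean FPKM of 0.5 needed for testing. The 39 tested rows comprised 11 of 19 ligands, 5 of 11 binding proteins and proteases, 10 of 11 receptors and co-receptors, all 8 SMAD and SMURF genes, all 3 ID genes and 2 genes of other families. A gene high in 1 group only could pass this filter through that group, so the tested rows do not stand for all members. Members summed to 690.4, 546 and 821 FPKM among resistant birds, against 738, 624 and 549.9 among susceptible birds, between 0.122% and 0.172% of the FPKM of all genes. The groups overlapped in this total.

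**Figure D1:**
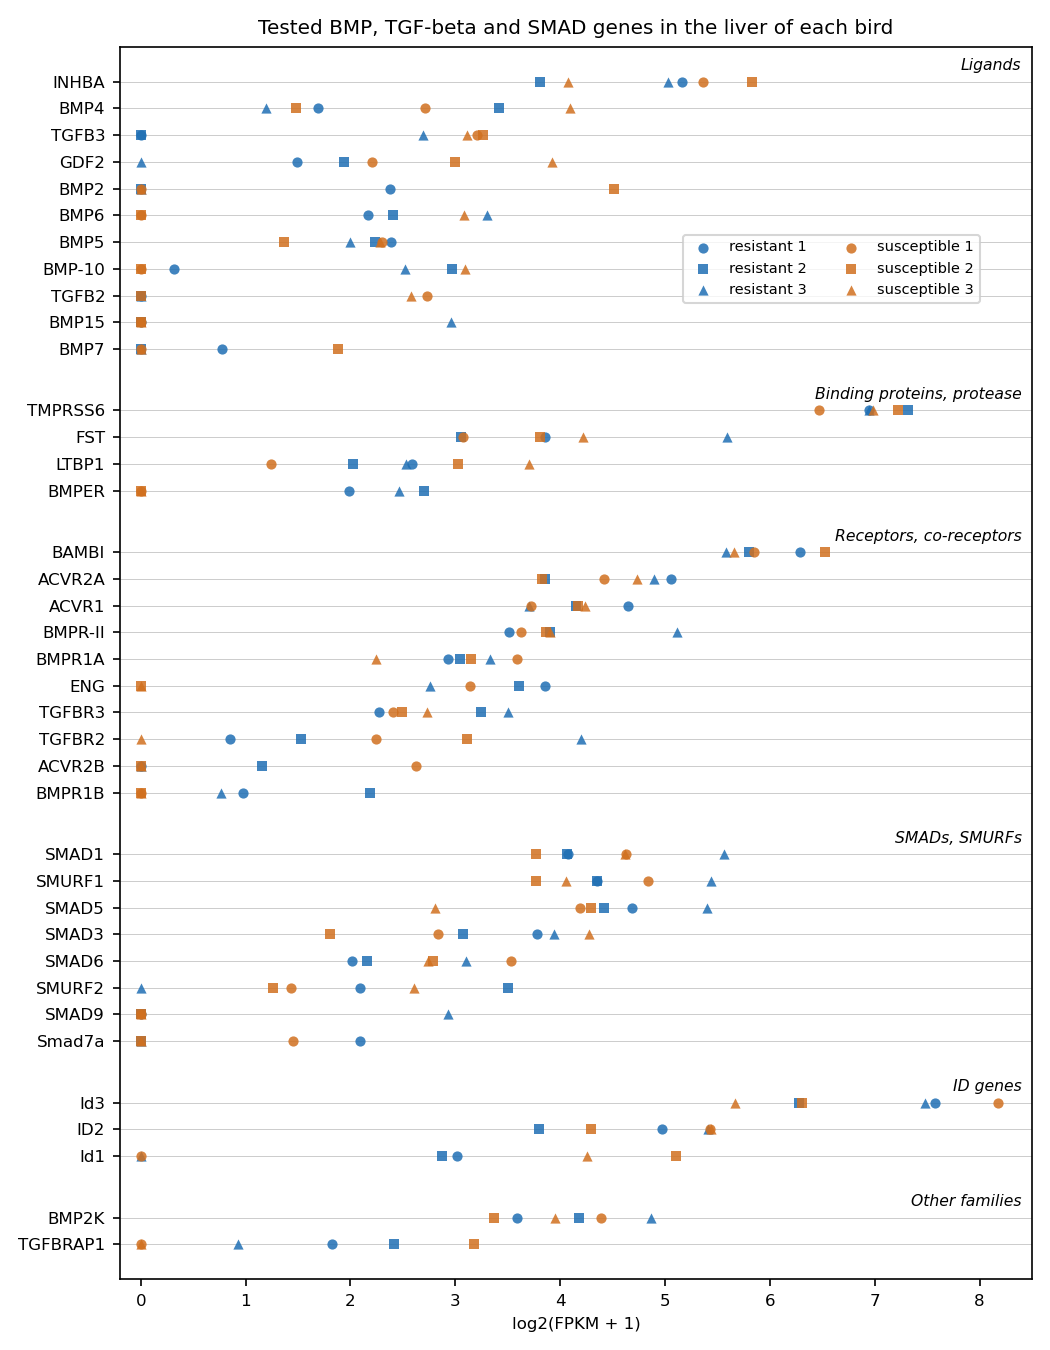
Level of 38 of the 39 tested members as log2(FPKM + 1) in each bird, grouped by role and ordered by mean within a role; points at 0 overlie each other. ID3, TMPRSS6 and BAMBI lie at the right in every bird, with FST and SMAD1 level with BAMBI in resistant bird 3. The points of most other members spread over 1 log2 unit or more without parting by group.

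The ligand genes had low levels apart from INHBA, the subunit of activin A. INHBA lies on chromosome 2 (galGal4 51170907 to 51183221, minus strand). Its FPKM was 34.7, 13.0 and 31.6 among resistant birds, against 40.1, 55.7 and 15.8 among susceptible birds. The lowest values belonged to resistant bird 2 and susceptible bird 3, so the groups overlapped. Means were 26.4 ± 11.7 and 37.2 ± 20.1 (SD, n = 3), and the log2 fold change, here always resistant minus susceptible on the log2(FPKM + 1) scale, was -0.42 (SE 0.59). Between 20.4% and 67.2% of a bird's summed ligand FPKM came from INHBA. The alternative activin subunit INHBB and the inhibin subunit INHA were listed at 0 in all birds.

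TGFB3, a TGF-beta isoform, was listed at 0 in resistant birds 1 and 2 and had an FPKM of 5.46 in resistant bird 3. The susceptible birds had 8.26, 8.58 and 7.65, close to each other and all above the resistant birds. TGFB3 lies on chromosome 5 (37739714 to 37747666, minus strand). Its signal rested on 29 fragments in resistant bird 3 and on 62, 49 and 57 in the susceptible birds. The log2 fold change was -2.30 (SE 0.95, 95% interval -4.42 to -0.18), with an unadjusted p of 0.037 and an adjusted p of 0.984 by limma. Leaving out resistant bird 1 or 2 made it -1.85 (unadjusted p 0.14 and 0.13 by limma), and leaving out resistant bird 3 made it -3.19 (unadjusted p 0.0040). Leaving out any susceptible bird brought the unadjusted p to between 0.078 and 0.085. With a pseudocount of 0.1 the log2 fold change was -4.43, so its size depends on the handling of the 0s. TGFB2, the other isoform in the table, was listed at 0 in all 3 resistant birds and in susceptible bird 2, and stood at 5.64 and 4.98 in susceptible birds 1 and 3. TGFB2 passed the filter through the susceptible birds alone. Both TGF-beta isoforms were thus above 0 in more susceptible than resistant birds, though a listed 0 can stand for a failed estimate. The share of all genes with that pattern was not counted.

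GDF2, the liver-made endothelial ligand known as BMP9, had an FPKM of 1.81, 2.83 and 0 among resistant birds. In the susceptible birds it had 3.61, 6.97 and 14.2. Each susceptible bird lay above each resistant bird, and the spread within the susceptible group was larger than the gap between the groups. The gene lies on chromosome 6 (17554592 to 17557812, minus strand), with 18, 32 and 0 fragments in the resistant and 30, 44 and 117 in the susceptible birds. The limma log2 fold change was -1.90 (SE 0.90, 95% interval -3.91 to 0.11), with an adjusted p of 0.984. In the 4 birds with chromosome W signal it was -0.89, and with a pseudocount of 0.1 it was -3.13. BMP-10, the close relative of GDF2, did not share this order: it had 0.249, 6.83 and 4.74 among resistant birds, against 0, 0 and 7.51 among susceptible birds.

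BMP6, the hepcidin-inducing ligand, had an FPKM of 3.48, 4.30 and 8.87 among resistant birds, and it was listed at 0 in susceptible birds 1 and 2 and at 7.48 in susceptible bird 3. The log2 fold change was 1.60 (SE 1.03). BMP6 shares its locus in the table with TXNDC5, so reads of these neighbours may have been divided between them. BMP4 had 2.23, 9.70 and 1.29 against 5.55, 1.80 and 16.1, and its highest birds came from both groups. BMP5 was the steadiest of the ligands, at 4.22, 3.71 and 2.98 in the resistant and 3.94, 1.58 and 3.86 in the susceptible birds. BMP2 reached 21.8 in susceptible bird 2 and 4.20 in resistant bird 1 and was listed at 0 in the other 4 birds. BMP15, an oocyte factor, had 6.79 in resistant bird 3 alone, and BMP7 stood above 0 in resistant bird 1 (0.706) and susceptible bird 2 (2.68). GDF10, BMP3 and both GDF-9 rows stayed at or below 1.76 in every bird.

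Summed over the 19 ligand rows, the resistant birds had 51.6, 42.6 and 61.7 FPKM and the susceptible birds 68.5, 99.2 and 77.6. The groups did not overlap in this sum. Without INHBA the sums were 16.9, 29.6 and 30.1 against 28.4, 43.4 and 61.8, and the groups overlapped. Of the 11 tested ligands, 4 had a higher and 7 a lower mean log2 level in resistant birds. Over the tested genes of the role the median of the log2 fold changes was -0.42. It was -0.24 without resistant bird 2 or 3 and -0.05 without susceptible bird 2, where 5 of 11 were higher, and -0.68 without susceptible bird 1 or 3. INHBA and BMP2 gave most of the ligand sum of susceptible bird 2, while in susceptible bird 3 BMP4, INHBA and GDF2 had similar values.

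**Figure D2:**
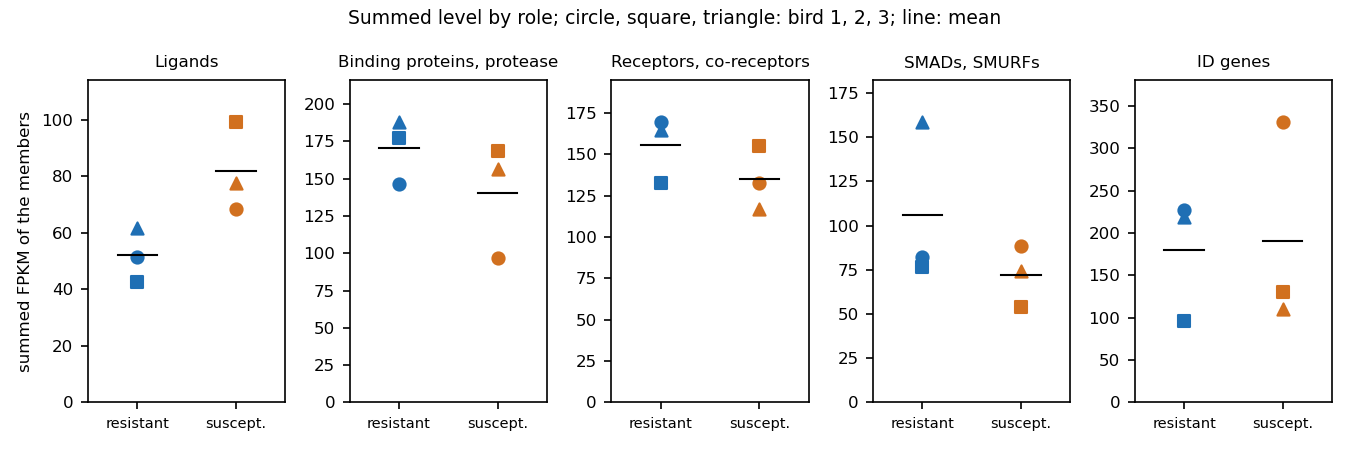
Summed FPKM of the members of each role in each bird (circle, square and triangle for birds 1, 2 and 3; horizontal line, group mean; each panel has its own axis from 0). The ligand sums of the resistant birds (42.6 to 61.7) lie below those of the susceptible birds (68.5 to 99.2), and the groups overlap in the other 4 panels.

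The binding proteins and proteases were dominated by TMPRSS6, the hepatocyte membrane protease that restrains hepcidin in mammals by cutting the BMP co-receptor hemojuvelin. It lies on chromosome 1 (51317877 to 51335342, plus strand). Its FPKM was 122, 158 and 122 among resistant birds, against 87.8, 148 and 126 among susceptible birds, the narrowest spread of any member above 0 in all birds, with the highest bird 1.80 times the lowest. Means were 134 ± 20.7 and 121 ± 30.6 (SD, n = 3). The log2 fold change was 0.18 (95% interval -0.64 to 0.99), the only interval among the tested members that stayed within a 2-fold change either way. TMPRSS6 gave between 65.0% and 90.9% of the summed FPKM of its role.

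BMPER, a secreted BMP-binding protein made by endothelial cells, had an FPKM of 2.97, 5.52 and 4.52 among resistant birds. All 3 susceptible birds were listed at 0. BMPER lies on chromosome 2 (48103440 to 48249944, minus strand), and its values correspond to 50, 106 and 45 fragments in the resistant birds. It had the smallest p of the members, an unadjusted 0.0093 with an adjusted p of 0.984 by limma, and no fold is given against a group at 0. BMPER passed the filter through the resistant birds alone, and its susceptible values have no spread, so this p is a description only. It was not fitted with a filter of 5 FPKM or with 0s treated as missing. The antagonists CHRD and CHRDL1 were low. CHRD had 0.570 and 1.46 in resistant birds 1 and 2 and 0.915 in susceptible bird 3, and CHRDL1 had 0.670 and 1.52 in resistant birds 1 and 2 only. Those 2 resistant birds had the most fragments. Of all 14481 genes, 5057 and 5504 were listed at 0 in them, against 6623 to 7810 in the other birds. Both antagonists are below the filter and were not tested.

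Follistatin, encoded by FST, binds and neutralises activin. Its FPKM was 13.5, 7.33 and 47.2 among resistant birds, against 7.42, 13.0 and 17.7 among susceptible birds. Resistant bird 3 stood far above the others, and in each group bird 3 was the highest. The log2 fold change was 0.47 (SE 0.72), -0.24 without resistant bird 3. FST lies on chromosome Z (15930691 to 15938408, plus strand), and resistant bird 3 and susceptible bird 3 were the birds with no chromosome W signal. Over the 472 tested genes of chromosome Z, the median log2 deviation from the mean of the 6 birds was 0.62 in resistant bird 3 and 0.43 in susceptible bird 3, and between -0.45 and -0.04 in the other 4 birds. In the 4 birds with chromosome W signal the log2 fold change of FST was 0.02. The part of the chromosome Z level in the value of FST was not tested. Set beside its ligand, FST was above INHBA in resistant bird 3 and susceptible bird 3 and below it in the other 4 birds.

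**Figure D3:**
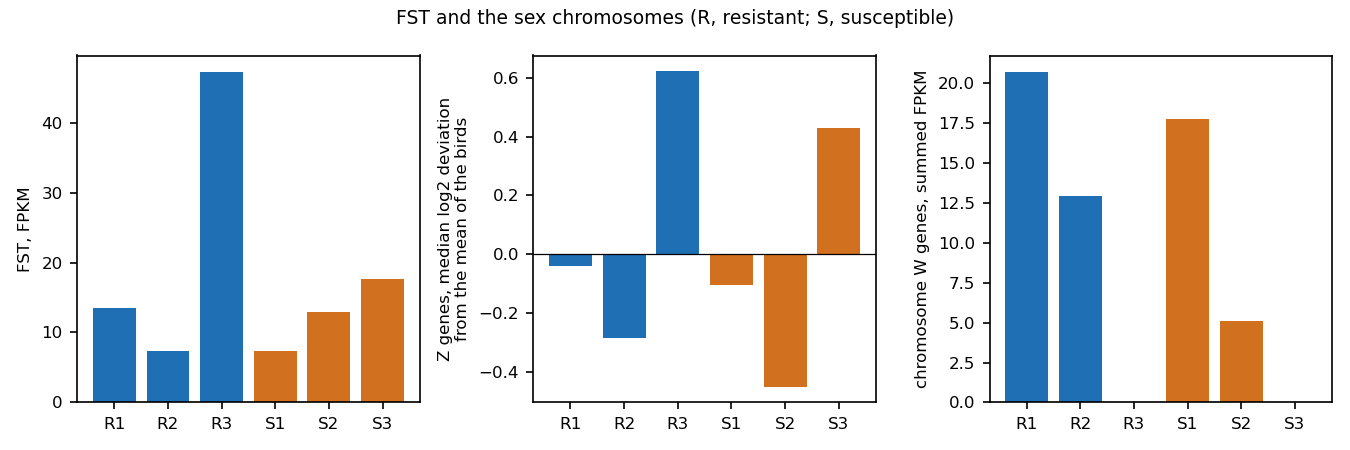
FPKM of FST (left), median log2 deviation of the 472 tested chromosome Z genes from the mean of the birds (middle) and summed FPKM of the 9 chromosome W rows (right) in each bird (R, resistant; S, susceptible). Birds R3 and S3 have the highest FST values (47.2 and 17.7), the highest chromosome Z medians (0.62 and 0.43) and no chromosome W signal.

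LTBP1, which holds latent TGF-beta in the matrix, had 5.03, 3.07 and 4.76 among resistant birds, against 1.36, 7.17 and 12.0 among susceptible birds. The susceptible birds held both the lowest and the highest value. LTBP1 is among the 5 members that share a locus with another row. Its relative LTBP2 was above 0 in resistant bird 1 only, at 1.22. Over the 5 tested binding proteins and proteases, 4 had a higher mean log2 level in resistant birds. Over the tested genes of the role the median of the log2 fold changes was 0.47. Without resistant bird 3 the count of higher genes was 2 of 5 and the median 0.00, without susceptible bird 1 they were 3 of 5 and 0.16, and without resistant bird 2 they were 4 of 5 and 1.02.

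Among receptors the pseudoreceptor BAMBI, which lacks a kinase and dampens signalling, had the highest level. Its FPKM was 77.0, 54.6 and 46.9 among resistant birds, against 56.6, 90.9 and 49.5 among susceptible birds, within a range of 1.94 times. It lies on chromosome 2 (15230158 to 15236740, minus strand). Means were 59.5 ± 15.6 and 65.7 ± 22.2 (SD, n = 3), and the log2 fold change was -0.12 (SE 0.41, 95% interval -1.04 to 0.80). Its sign turned with quantile normalization, to 0.02, and without resistant bird 3 or susceptible bird 2, to 0.03 and 0.14.

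ACVR2A, a type II receptor that binds activins and BMPs, had 32.4, 13.5 and 28.8 among resistant birds, against 20.4, 13.2 and 25.5 among susceptible birds. BMPR-II, the BMP type II receptor, had 10.4, 14.0 and 33.7 against 11.3, 13.6 and 13.9. The first gene varied alike in both groups, while for BMPR-II 5 birds lay between 10.4 and 14.0 and resistant bird 3 stood apart, and its log2 fold change of 0.38 was -0.09 without that bird. ACVR2B was above 0 in resistant bird 2 (1.23) and susceptible bird 1 (5.15). TGFBR2, the TGF-beta type II receptor, ran from 0 in susceptible bird 3 to 17.4 in resistant bird 3, with 0.799 and 1.89 in resistant birds 1 and 2 and 3.72 and 7.65 in susceptible birds 1 and 2.

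Of the type I receptors, ACVR1, the receptor also called ALK2, had 24.1, 16.7 and 12.0 among resistant birds, against 12.2, 17.0 and 17.8 among susceptible birds, with a log2 fold change of 0.12 (SE 0.51). BMPR1A, or ALK3, had 6.61, 7.27 and 9.06 against 11.0, 7.89 and 3.73, with a log2 fold change of 0.11 (SE 0.67). The groups overlapped for both genes, though the intervals, -1.02 to 1.27 for ACVR1 and -1.40 to 1.61 for BMPR1A, do not exclude a 2-fold difference. BMPR1B, or ALK6, was low in the resistant birds at 0.963, 3.55 and 0.697 and listed at 0 in all susceptible birds. It lies on chromosome 4 (57960584 to 58196338, plus strand) and rested on 14, 44 and 6 fragments. Its unadjusted p was 0.098 by limma, with an adjusted p of 0.984. Like BMPER, it passed the filter through the resistant birds alone. ACVR1C went the other way at a lower level, with 0.363 and 0.796 in susceptible birds 1 and 3 and 0 elsewhere, and was not tested.

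Endoglin, encoded by ENG, is the endothelial co-receptor for GDF2 and BMP10. Its FPKM was 13.5, 11.2 and 5.75 among resistant birds, while in the susceptible birds it was 7.84 in bird 1 and listed at 0 in birds 2 and 3. Susceptible bird 1 lay above resistant bird 3, so the groups overlapped. ENG lies on chromosome 17 (4882932 to 4891674, plus strand), and its values correspond to 167, 158 and 42 fragments in the resistant birds and 81 in susceptible bird 1. The log2 fold change was 2.36 (SE 1.02, 95% interval 0.08 to 4.64), with an unadjusted p of 0.044 and an adjusted p of 0.984 by limma. Leaving out susceptible bird 2 or 3 made it 1.84 (unadjusted p 0.14 and 0.16), and leaving out any resistant bird brought the unadjusted p to between 0.082 and 0.16. Leaving out susceptible bird 1 made it 3.41 (unadjusted p 0.0054 by limma). With a pseudocount of 0.1 it was 4.49. TGFBR3, or betaglycan, the related co-receptor, was above 0 in every bird, at 3.84, 8.46 and 10.3 against 4.29, 4.64 and 5.61.

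Endothelial markers were read beside ENG, BMPER and GDF2. All 8 of the listed markers were tested, 6 of them with a higher mean log2 level in resistant birds, and their median log2 fold change was 0.59. Their summed FPKM ranged from 102 to 283 in the resistant birds and from 87.4 to 161 in the susceptible birds. TIE1 was listed at 0 in susceptible birds 2 and 3, the birds in which ENG was listed at 0, and FLT4 was listed at 0 in resistant bird 2 and susceptible bird 2. KDR, VWF, TEK, STAB2 and CDH5 had their lowest values in susceptible bird 2. STAB2 was the 1 marker whose groups did not overlap. It had 6.05, 13.1 and 6.71 among resistant birds, against 4.95, 2.00 and 5.29 among susceptible birds. All resistant birds lay above in 4.44% of all genes tested. In susceptible bird 3 every marker but TIE1 was above 0, with CDH5 at 64.0, VWF at 17.5 and FLT4 at 1.78, its highest value. PECAM1 and FLT4 had a lower mean log2 level in resistant birds, with log2 fold changes of -0.23 and -0.36. Stellate cell and fibroblast markers summed to between 187 and 264 in the resistant and between 179 and 219.6 in the susceptible birds, with 5 of 7 higher in resistant birds. Macrophage markers summed to between 183 and 249 and between 82.6 and 276, with 4 of 5 higher. The part of these cell types in the values of ENG, BMPER and GDF2 was not tested.

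Over all receptors and co-receptors the sums were 169.6, 132 and 165 FPKM among resistant birds, against 133, 155 and 117 among susceptible birds. Of 10 tested, 8 had a higher mean log2 level in resistant birds. Over the tested genes of the role the median of the log2 fold changes was 0.33. Without resistant bird 3 the count was 6 of 10 and the median 0.08.

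The SMAD genes were of moderate level. SMAD5, a BMP-activated receptor SMAD, had an FPKM of 24.8, 20.4 and 41.3 among resistant birds, against 17.2, 18.7 and 5.98 among susceptible birds. Every resistant bird lay above every susceptible bird, with 20.4 and 18.7 the nearest values across the groups. Means were 28.8 ± 11.0 and 14.0 ± 6.95 (SD, n = 3). The log2 fold change was 1.07 (SE 0.58, 95% interval -0.22 to 2.36), with an adjusted p of 0.984 by limma. It was 0.59 without susceptible bird 3 and 0.31 in the 4 birds with chromosome W signal. The span given for SMAD5 in the table, on chromosome 13 from 14295426 to 14509385, is shared by 4 other rows, among them TGFBI, so its reads may have been divided with theirs. TGFBI, itself a gene that TGF-beta raises, had 12.5, 7.89 and 26.7 against 7.39, 11.5 and 22.9 and did not follow SMAD5.

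SMAD1, the partner of SMAD5 downstream of BMP receptors, had 15.9, 15.7 and 46.2 among resistant birds, against 23.7, 12.7 and 23.6 among susceptible birds. It lies on chromosome 4 (30583397 to 30608810, plus strand). Its highest value by far was that of resistant bird 3, and the log2 fold change of 0.23 (SE 0.57) was -0.27 without that bird. SMAD9 was above 0 in resistant bird 3 only, at 6.61. SMAD3, the activin and TGF-beta effector, had 12.7, 7.43 and 14.4 against 6.13, 2.50 and 18.4, with a log2 fold change of 0.63 (SE 0.76) that was 0.05 without susceptible bird 2. The BMP-activated genes SMAD1, SMAD5 and SMAD9 together made up between 61.7% and 92.6% of the FPKM of the 4 receptor SMADs measured. Both extremes were susceptible birds. SMAD2, which also serves activins and TGF-betas, was not analysed, so these shares leave it out.

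The inhibitory SMADs block receptor SMADs and are raised by the pathway itself. SMAD6 had 3.05, 3.47 and 7.59 among resistant birds, against 10.6, 5.91 and 5.67 among susceptible birds. It was the only gene of its role with a lower mean log2 level in resistant birds, with a log2 fold change of -0.59 (SE 0.73), though with quantile normalization only 5 of the 8 genes were higher. SMAD6 and SMAD3 are neighbours on chromosome 10, 81056 bases apart in the table. Smad7a, on chromosome Z, was above 0 in resistant bird 1 (3.27) and susceptible bird 1 (1.74). The ubiquitin ligase SMURF1, which marks SMADs and receptors for degradation, had 19.5, 19.5 and 42.4 against 27.6, 12.7 and 15.7, again with the highest value in resistant bird 3, and it shares its locus with other rows of the table. SMURF2 was listed at 0 in that same bird and had 3.27 and 10.3 in resistant birds 1 and 2 and 1.71, 1.40 and 5.08 in the susceptible birds.

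The 8 SMAD and SMURF genes summed to 82.4, 76.8 and 158.5 FPKM among resistant birds, against 88.7, 53.8 and 74.3 among susceptible birds. Of the 8, 7 had a higher mean log2 level in resistant birds. Over the tested genes of the role the median of the log2 fold changes was 0.36. The count was 4 of 8 without susceptible bird 2, where the median was 0.01, and 5 of 8 without resistant bird 3. Without susceptible bird 1 or resistant bird 2 the median was 0.63 and 0.62.

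The ID genes encode inhibitors of basic helix-loop-helix factors and are direct targets of BMP signalling. ID3, written Id3 in the table, had the highest mean FPKM of the members, with TMPRSS6 above it in resistant bird 2 and susceptible birds 2 and 3. Its FPKM was 189.5, 76.7 and 177 among resistant birds, against 289, 78.2 and 49.9 among susceptible birds, with means of 148 ± 61.8 and 139 ± 131 (SD, n = 3). The gene lies on chromosome 23 (2169483 to 2170150, minus strand). Each group held high and low birds, and the log2 fold change was 0.39 (SE 0.64). ID2 had 30.3, 12.9 and 41.6 against 42.0, 18.6 and 42.3, with a log2 fold change of -0.32 (SE 0.56). ID2 was low in the second bird of each group, and ID3 was low in those birds and in susceptible bird 3.

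ID1, written Id1 in the table, ran otherwise. It was listed at 0 in resistant bird 3 and susceptible bird 1, and it had 7.10 and 6.33 in resistant birds 1 and 2 and 33.5 and 18.1 in susceptible birds 2 and 3. ID3 gave between 79.9% and 87.3% of the summed ID level in the 3 resistant birds and susceptible bird 1, and 60.0% and 45.2% in susceptible birds 2 and 3. The 3 ID genes summed to 227, 95.9 and 218 FPKM in the resistant and 331, 130.2 and 110.4 in the susceptible birds. Of the 3, 1 was higher and 2 were lower in resistant birds, with a median of -0.32, and the groups overlapped for each gene and for the sum. Without resistant bird 2 these were 2 higher and 1 lower with a median of 0.14, and without susceptible bird 3 all 3 were lower.

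Genes of other families enter through their names. BMP2K, a kinase first found as a BMP2-induced gene, had 11.0, 17.1 and 28.2 among resistant birds, against 20.0, 9.32 and 14.5 among susceptible birds. TGFBRAP1, a vesicle-tethering protein that binds TGF-beta receptors, had 2.54, 4.34 and 0.898 against 0, 8.06 and 0. Its log2 fold change was 0.66, and 2.39 with a pseudocount of 0.1. The groups overlapped for both genes.

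Over the 39 tested members, 26 had a higher and 13 a lower mean log2 level in resistant birds. That is 66.7% higher, beside 52.8% of all genes tested, and the median log2 fold change was 0.23 beside 0.05. The 3 members with an unadjusted p under 0.05 and the 5 whose groups did not overlap were given above with the shares of all genes. Of the members with a mean of at least 10 FPKM, 11 of 15 were higher in resistant birds, while among all 4096 genes at that level 46.1% were. Without resistant bird 3, 18 of the 39 were higher and 18 lower, and their median was 0.00, beside 0.005 for all genes. In the 4 birds with chromosome W signal, which leave out susceptible bird 3 as well, 20 were higher and 16 lower. The median there was 0.02, as for all genes. The remaining members had a difference of 0 in these settings. The share of all genes that were higher was not counted in them. The part of resistant bird 3 in the excess was not tested otherwise.

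**Figure D4:**
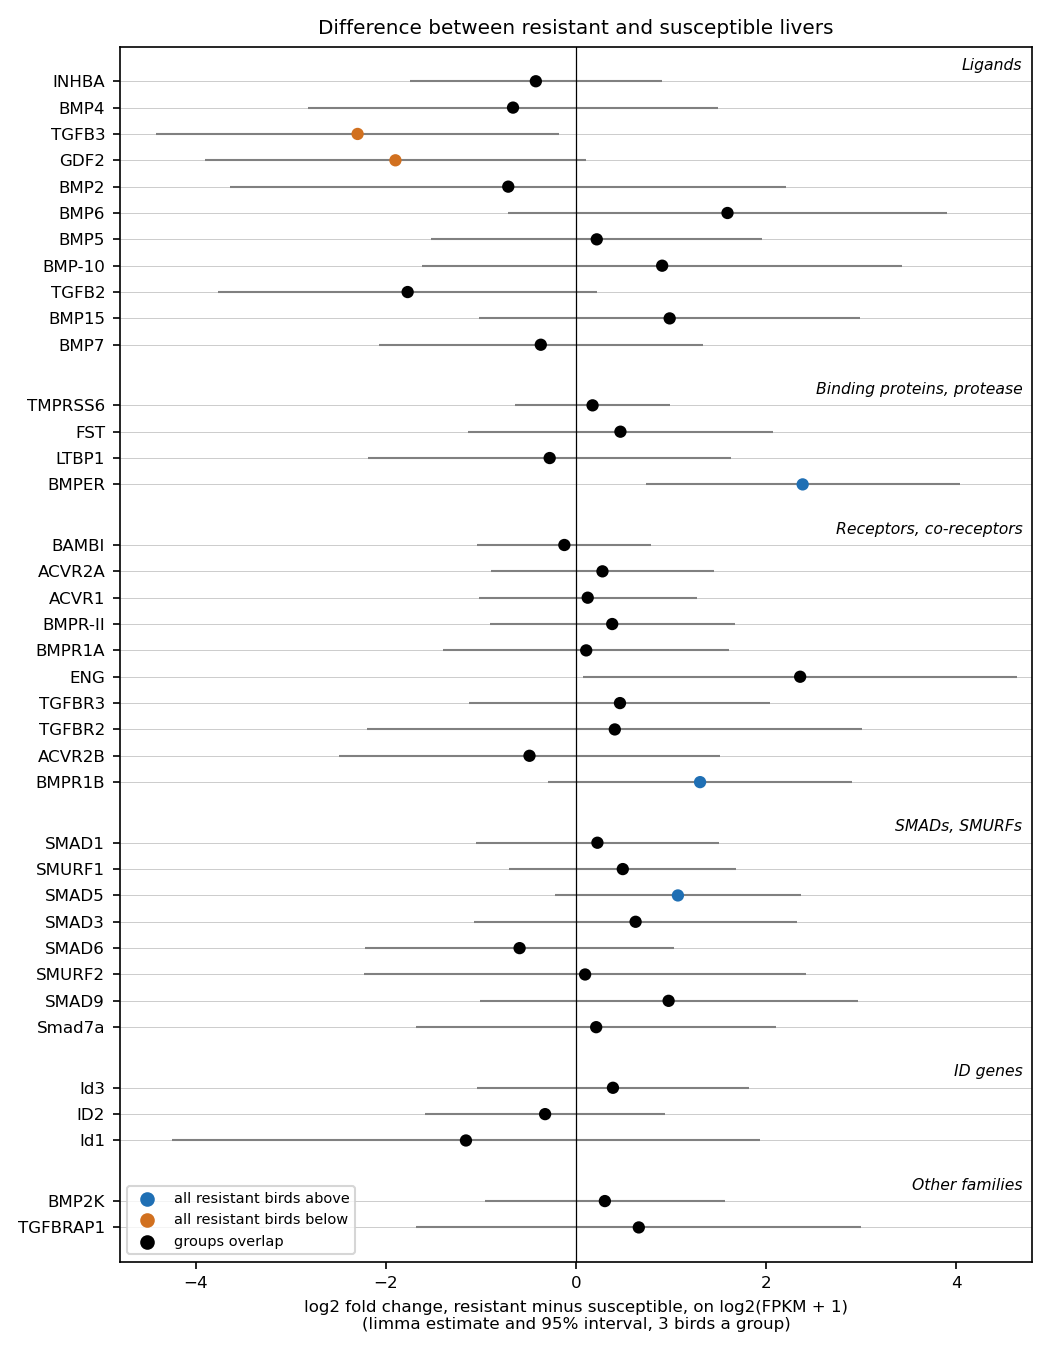
Log2 fold change, resistant minus susceptible, on the log2(FPKM + 1) scale with its 95% interval from limma for 38 of the 39 tested members (3 birds a group; blue and orange, all resistant birds above or below all susceptible birds). Most intervals cross 0 and span over 2 log2 units; for BMPER, BMPR1B, SMAD9, BMP15 and TGFB2, listed at 0 in a whole group, and for TGFB3, GDF2, ENG and TGFBRAP1, listed at 0 in some birds, the size depends on the pseudocount.

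Resistant bird 3 held the highest value of 12 of the 39 tested members, or 30.8%, beside 25.1% of all genes tested. Among these were SMAD1, SMAD5, SMAD9, SMURF1, BMPR-II, TGFBR2, TGFBR3, FST, BMP6, BMP15 and BMP2K. The median log2 deviation of the members from the mean of the 6 birds was 0.43 in resistant bird 3, where that of all genes tested was 0.16. It was -0.49 in susceptible bird 2, where that of all genes was -0.32. Resistant bird 3 had the fewest fragments of the 6 birds, and it also had the largest value of 1 fragment on the scaled count scale, at 1.42 beside 0.734 to 1.32 in the others. After rescaling by median ratios the members' median deviation was 0.26 in resistant bird 3, with all genes at -0.01, and -0.46 in susceptible bird 2, with all genes at -0.25. In resistant bird 2 it turned from -0.15 to 0.15, while that of all genes turned from -0.14 to 0.12. The part of depth in these deviations was not tested otherwise.

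Other genes of the pathway were read from lists by role. Of 41 extracellular regulators listed, 16 were tested, of which 10 were higher and 6 lower in resistant birds, and 0 passed the adjusted test. The median of the log2 fold changes was 0.25. NEO1, or neogenin, a co-receptor partner of hemojuvelin, had 1.16, 0.766 and 0.941 among resistant birds, against 3.43, 7.57 and 3.09 among susceptible birds, all above the resistant birds, with a log2 fold change of -1.46 (SE 0.79). The TGF-beta trap VASN had 7.67, 7.06 and 3.08 against 0, 4.17 and 1.92, and NRROS, which anchors latent TGF-beta on macrophages, had 1.96, 2.69 and 4.56 against 0.443, 0 and 2.23. The groups overlapped for both. TLL1, a protease that cuts chordin, was at or below 1.51 in every bird.

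Of 42 intracellular regulators listed, 32 were tested, of which 17 were higher and 15 lower in resistant birds, and 0 passed the adjusted test. The median of the log2 fold changes was 0.03. CTDSP1, a phosphatase that acts on SMAD linkers, had 6.91, 9.67 and 15.2 among resistant birds but a listed 0 in every susceptible bird. Its unadjusted p was 0.0014 and its adjusted p 0.984 by limma, and it too passed the filter through the resistant birds alone. SKI, a corepressor of SMAD transcription, had 6.80, 5.48 and 1.63 against 2.55, 0 and 0. The phosphatase subunit PPP2CA had 29.8, 30.8 and 23.3 against 22.0, 8.99 and 21.3, with all resistant birds above. PMEPA1, a TGF-beta-induced inhibitor of SMAD activation, had 9.23 in resistant bird 1, was listed at 0 in resistant birds 2 and 3, and had 14.8, 20.7 and 12.9 in the susceptible birds. Its log2 fold change was -2.95 (SE 1.00), with an unadjusted p of 0.015 and an adjusted p of 0.984 by limma.

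A list of 30 names, some of them aliases, was drawn up for genes that BMP or TGF-beta may raise. Of these, 18 were tested, with 8 higher and 10 lower in resistant birds, and 0 passed the adjusted test. The median of the log2 fold changes was -0.27. The list also held LEAP2 and MYC, for which that direction is not established. Both were among the 10 lower, with log2 fold changes of -0.79 and -0.33. PMEPA1 was also in this list. Fibronectin, fn1 in the table, had 21.1, 24.8 and 47.1 among resistant birds, against 60.4, 46.3 and 72.5 among susceptible birds, with only resistant bird 3 and susceptible bird 2 crossing and a log2 fold change of -0.99 (SE 0.45, unadjusted p 0.053 by limma). The BMP and Notch target HEY1 had 1.83, 0 and 4.12 against 0 in all susceptible birds, and the cell cycle inhibitor CDKN1A had 4.87, 0.651 and 34.6 against 0, 0 and 5.62. PMEPA1 was thus higher in every susceptible bird than in any resistant bird, while for fn1 the groups overlapped. HEY1 was above 0 in resistant birds 1 and 3 only. For CDKN1A susceptible bird 3 lay above resistant birds 1 and 2, and resistant bird 3 was the highest. These 4 genes were named for their smallest p, and others of the list went both ways. Log2 fold changes were 0.83 for SKIL, 0.36 for COL3A1 and 0.13 for TGFBI, but -1.09 for CTGF and -0.60 for COL1A2.

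Of 11 names listed for the hepatic iron axis, 6 were matched to genes, and all 6 were tested. Of these, 1 was higher and 5 lower in resistant birds, with 0 past the adjusted test. Hepcidin was not among the 6, so its level was not read here. The transferrin receptor TFRC had 10.4, 11.8 and 0 against 5.81, 20.4 and 18.4. The ferritin heavy chain FTH1 had 1267, 907 and 2593 against 2415, 1291 and 2285, and the proprotein convertase FURIN, which matures BMP ligands, had 26.7, 22.2 and 27.5 against 17.1, 42.1 and 43.8. The groups overlapped for all 3. The median log2 fold change of the 6 genes was -0.36, and NEO1, described above, was among them.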

How the data were processed

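The authors deposited FPKM values and, named counts per the file headers, a scaled signal for the same birds. Per the submitters' processing notes, cutadapt 1.9.3, HISAT2 2.0.4, Cufflinks, Cuffdiff and the galGal4 build were used, with no step assigned to them. Within 0.02 steps, 99.3% to 99.6% of a bird's scaled values above 0.1 were whole multiples of 1 step, read as 1 fragment over a size factor; dividing by it gave the fragments. No count model was run. Groups and bird numbers come from the sample titles, and columns were matched to birds by their labels, with 0 columns of other samples.

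Log2(FPKM + 1) was fitted with limma 3.58.1 in R 4.3.3 (trended eBayes) as resistant minus susceptible. The 9626 genes whose mean FPKM reached 0.5 were tested, 2-sided, with Benjamini-Hochberg adjustment at 0.05. The fit was tried on simulated normal values without listed 0s, with changes set in abundant genes only. That trial does not cover low genes with listed 0s. Fold changes on this scale understate the change of low genes. Starts were raised by 1 to count from 1. Members, lists and tests were chosen with earlier results of these data known. Named were the 5 most abundant members per role, members with an unadjusted p under 0.05 or groups that do not overlap, and the 4 genes of smallest p per other list; members beyond that rule were named after their values were seen. Alternatives changed the pseudocount, filter, scaling, handling of 0s, measure, moderation and birds, or added the bird number as a block. Deviations from the group means correlated at 0.012, 0.040 and 0.17 between same-numbered birds, and at -0.13 to 0.12 between birds of unlike number. With 3 birds a group these values cannot decide whether the numbers pair the birds. The values of 1 member are not reported here, though counts and sums include it. Python 3.11.15 and matplotlib 3.10.9 drew the figures.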

Additional observations from a re-analysis of the deposited data

How the results depend on the processing

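No gene passed the adjusted test under any alternative run. Of the members, 3 had an unadjusted p under 0.05 and 5 had groups that did not overlap. Among all 9626 genes tested, 231 were higher and 142 lower in resistant birds at that p by limma. With a filter of 5 FPKM the counts of members were 0 and 1, and with 0s treated as missing 1 and 3. All genes at that p were then 81 higher and 105 lower of 5992 with the filter, and 69 and 251 of 7207 with 0s missing. The share of all genes whose groups did not overlap was counted for the main fit only. In the 4 birds with chromosome W signal, where groups of 2 part more easily, 14 members did not overlap. There 4 members had an unadjusted p under 0.05 by limma, and of all 9626 genes 618 were higher and 216 lower at that p. Leaving out a bird gave 1 to 3 members with an unadjusted p under 0.05 and 6 to 9 that did not overlap. Over all genes tested, it gave 230 to 392 higher and 81 to 212 lower at that p. The replicate block left 3 members with an unadjusted p under 0.05 and the median at 0.23. The median log2 fold change of the members, 0.23, ranged from 0.00 without resistant bird 3 to 0.37 without susceptible bird 1. The median of all genes was 0.13 with a pseudocount of 0.1, 0.13 after median ratio rescaling, 0.14 with scaled counts and -0.14 with 0s missing, beside 0.05. Of the 27 named members, 11 kept the same sign under every alternative and 16 changed it under at least 1. The cause was not tested. A count model on recovered reads was not run. The part of depth in the listed 0s was not tested. Of 324 member values, 41.0% were 0, 1.85% rested on 1 to 9 fragments and 57.1% on 10 or more.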

Other observations

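Of the 7 pairs of members within 1 Mb on a chromosome, SMAD6 and SMAD3 had mean FPKM values of 6.04 and 10.3, and the GDF-9 rows, 46960 bases apart, were both too low to be tested. Others differed more. GDF2 and GDF10 lie 6005 bases apart on chromosome 6 with mean FPKM values of 4.90 and 0.293, and ACVR1 and ACVR1C lie 13022 bases apart on chromosome 7 with 16.6 and 0.193. TGFB3 lies 471399 bases from LTBP2 on chromosome 5, with means of 4.99 and 0.203, and BMP2K lies 526046 bases from BMP3 on chromosome 4, with 16.7 and 0.0679. NOG, at 0 in all birds, lies 723550 bases from SMURF2, with a mean of 3.63. In each of the pairs of GDF2, ACVR1, TGFB3 and BMP2K the second gene was too low to be tested.

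Few values of the tested members lay between 0 and 10 fragments. Of 234 values of the 39 tested members, 56 were 0, 3 rested on 1 to 9 fragments and 175 on 10 or more. All genes tested had few such values too, with 10959 values at 0, 991 with 1 to 9 fragments and 45806 with 10 or more. TGFB3, at 0 in 2 birds, had between 29 and 62 fragments in each of the other 4.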
